A study of Mus musculus with 20 samples.

Results

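The clustered histone genes encode the replication-dependent core histones H2A, H2B, H3 and H4 and the linker histone H1. They were taken as every gene whose GRCm38 symbol begins with Hist1h, Hist2h, Hist3h or Hist4h and whose reads summed to at least 50 over all tumors. Of 35226 genes in the count table, 61 carried such a symbol and 27 reached 50 reads. These 27 members were 5 of 6 H1 genes, 4 of 14 H2A genes, 9 of 17 H2B genes, 3 of 11 H3 genes and 6 of 13 H4 genes. By location, 20 of 50 genes of cluster 1 on chromosome 13, 4 of 7 of cluster 2 on chromosome 3, 2 of 3 of cluster 3 on chromosome 11 and the 1 gene of cluster 4 on chromosome 6 were members. Just inside the limit was Hist1h1a with 57 reads, and just outside it was Hist1h3b with 45. One further gene, H1f0, matches the newer style of histone symbol but is a single gene outside the clusters, and it is given with the replication-independent variants.

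RNA was measured in subcutaneous tumors of LLC1 cells, a Lewis lung carcinoma line, grown in male C57BL/6J mice, a syngeneic host. The 20 tumors fell into 4 groups of 5, which received vehicle, KW6002 (istradefylline, an antagonist of an adenosine receptor), cisplatin, or cisplatin together with KW6002 (cotreatment). The title of vehicle replicate 1 has a shorter form than those of the other 4 vehicle tumors, and it was kept as labelled. All 4 groups carried the same cell line and none was tumor-free. Each library was made from whole tumor tissue by poly(A) selection and held between 28371364 and 40965731 counted reads, so host cells contribute to every value, and a change in the number of cells of a type cannot be told apart from a change in RNA per cell.

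Replication-dependent histone genes are transcribed mainly in S phase, when newly copied DNA must be packed into nucleosomes. Their usual mRNA has no poly(A) tail. It ends just after a conserved stem-loop, which the stem-loop binding protein, the product of Slbp, holds through processing, translation and decay. Some of these genes can also be read through to a downstream poly(A) signal, and polyadenylated histone mRNAs of this kind are known from differentiated cells. Poly(A) selection captures the second form and mostly discards the first, so the values below describe polyadenylated histone transcripts plus whatever tailless RNA was carried over.

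The stem-loop was searched for in the annotated bases after the stop codon, with every stem position paired. A match was found in 39 of the 61 genes and in 20 of the 27 members. Some genes, members among them, had 0 annotated bases after the stop codon and could give no match. The lack of a match is therefore not the lack of a stem-loop. The stem-loop is shown for the 4 members called in any comparison, with 7 flanking bases on each side. Capitals mark the 16 bases of the stem and loop, read 5′ to 3′ on the coding strand from GENCODE M21 transcripts (GRCm38).
Hist1h1c: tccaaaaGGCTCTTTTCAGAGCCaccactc
Hist1h2ac: acccaaaGGCTCTTTTCAGAGCCcccactt
Hist3h2ba: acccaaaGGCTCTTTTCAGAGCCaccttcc
Hist1h4i: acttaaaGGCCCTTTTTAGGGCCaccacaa
The site lies in the annotated 3′ UTR, 24 bases after the stop codon in Hist1h1c, 32 in Hist1h2ac, 28 in Hist3h2ba and 30 in Hist1h4i. The annotated transcript then runs on for 840 bases in Hist1h1c, 2010 in Hist1h2ac, 169 in Hist3h2ba and 330 in Hist1h4i. The core shared by the first 3 was the commonest, present in 21 genes of types H1, H2A, H2B and H3, of which 14 were members. The core of Hist1h4i was found in 2 genes, both H4 members.

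Reads were concentrated in genes with a long annotated 3′ end. The 35 genes with at most 100 annotated bases after the stop codon had a median of 17.0 reads over the 20 tumors, a maximum of 235, and held 1.38% of all 89447 histone reads. The 26 genes with more than 100 bases had a median of 326 reads and held 98.6%. Of the short group 6 genes and of the long group 21 were members. This limit was set after the values were seen. Reads were counted only in annotated exons, and which Ensembl release they were counted on is not settled by the sources used here, so its extents may differ from the GENCODE M21 extents used for this division and for levels per kilobase. The part of a read-through transcript beyond a short annotation would go uncounted, and the measured and annotated extents cannot be told apart. A poly(A) signal (AATAAA or ATTAAA) within the last 50 annotated bases was found in 14 genes, 11 of them members, which held 82.7% of the histone reads. Most of these reads were from Hist1h1c (48370) and Hist2h2be (17807). Hist1h2bc, with 8925 reads, had no such signal at its annotated end.

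**Figure D1:**
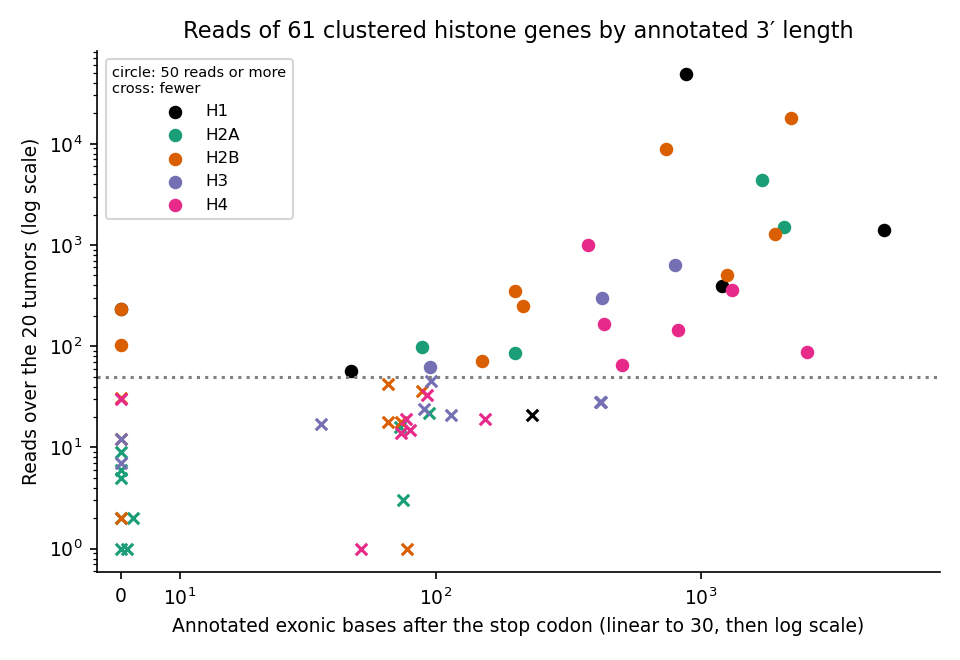
Each point is 1 of the 61 clustered histone genes, placed by annotated exonic bases after the stop codon (x axis, linear up to 30 and logarithmic beyond) and by reads summed over the 20 tumors (y axis, logarithmic); color gives the histone type, circles are the 27 members and the dotted line is 50 reads. No gene with at most 100 bases exceeded 235 reads, whereas Hist1h1c, with 880 bases, had 48370.

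One linker histone gene dominated. Hist1h1c (chr13:23738808-23740367, plus strand), which encodes a somatic H1 subtype, held 48370 of the reads, between 1726 and 3470 in each tumor. Per kilobase of exon it had 47.4 CPM (counts scaled to a common library size by TMM), the highest of the 27 members on this length-scaled level. Next were the H2B genes Hist1h2bc at 11.8 and Hist2h2be at 10.5 CPM per kilobase, then the H2A gene Hist3h2a at 3.12 and the H4 gene Hist1h4i at 2.15. The highest H3 member, Hist1h3d, reached 0.781 CPM per kilobase. Hist4h4 had the lowest level, 0.0456 CPM per kilobase.

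Short reads from near-identical copies limit part of the set, because only uniquely aligned reads were counted. The share of 50-base stretches found in no other annotated gene ranged from 0% to 100% among the 27 members, with a median of 75.4%. Among the 34 histone genes below 50 reads its median was 31.4%, and its part in their low counts was not tested. The share was 0% for Hist2h2bb, whose exon overlaps Gm42743 on the same strand, so its 103 reads are uncertain. A gene annotated over the same bases lowers this share as a copy elsewhere does, and these were not separated. Hist1h1e and Hist1h2be also overlap on the same strand, as do Hist3h2a and Trim17, and whether reads were assigned by strand is not stated.

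The comparisons between groups were made with edgeR across 16665 genes, of which 19 were members. The other 8 members were removed by the filter on low counts and were fitted only in the alternatives without it: Hist1h1a, Hist1h2ad, Hist1h2ae, Hist1h2bp, Hist1h3g, Hist1h4c, Hist2h2bb and Hist4h4. A gene was called at an adjusted P under 0.05 and an absolute log2 fold change of at least 0.32. The comparisons share groups, so their values are given side by side and are not independent of each other.

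Each comparison called between 0 and 3 of the 19 tested members, and a difference from the share of all genes was not tested. KW6002 alone called 0 of 19 members against vehicle, where 0% of all genes tested were called. An unadjusted p under 0.05 was found for 1 of the 19 members and for 338 of all 16665 genes. Cisplatin alone called 0 of 19 against a background of 10.6%, with 1 of 19 members and 5141 of 16665 genes at an unadjusted p under 0.05. Cotreatment called 3 of 19 (15.8%) against vehicle, beside a background of 23.5%, and 3 of 19 against KW6002, where the background was 23.3%. Cotreatment against cisplatin called 1 of 19 (5.26%), near the background of 4%. For the interaction of both drugs 0 of 19 were called against a background of 0.066%, with 1 of 19 members and 2036 of 16665 genes at an unadjusted p under 0.05. The members at that level numbered 6 for cotreatment against vehicle, 3 against cisplatin and 4 against KW6002, beside 7450, 3884 and 7333 of all genes. The median log2 fold change of the 19 members was 0.22 for cotreatment against vehicle, beside -0.02 over all genes, and 0.09 for cisplatin against vehicle, beside 0.00046 over all genes. It was 0.11 for KW6002 against vehicle, where no gene was called.

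**Figure D2:**
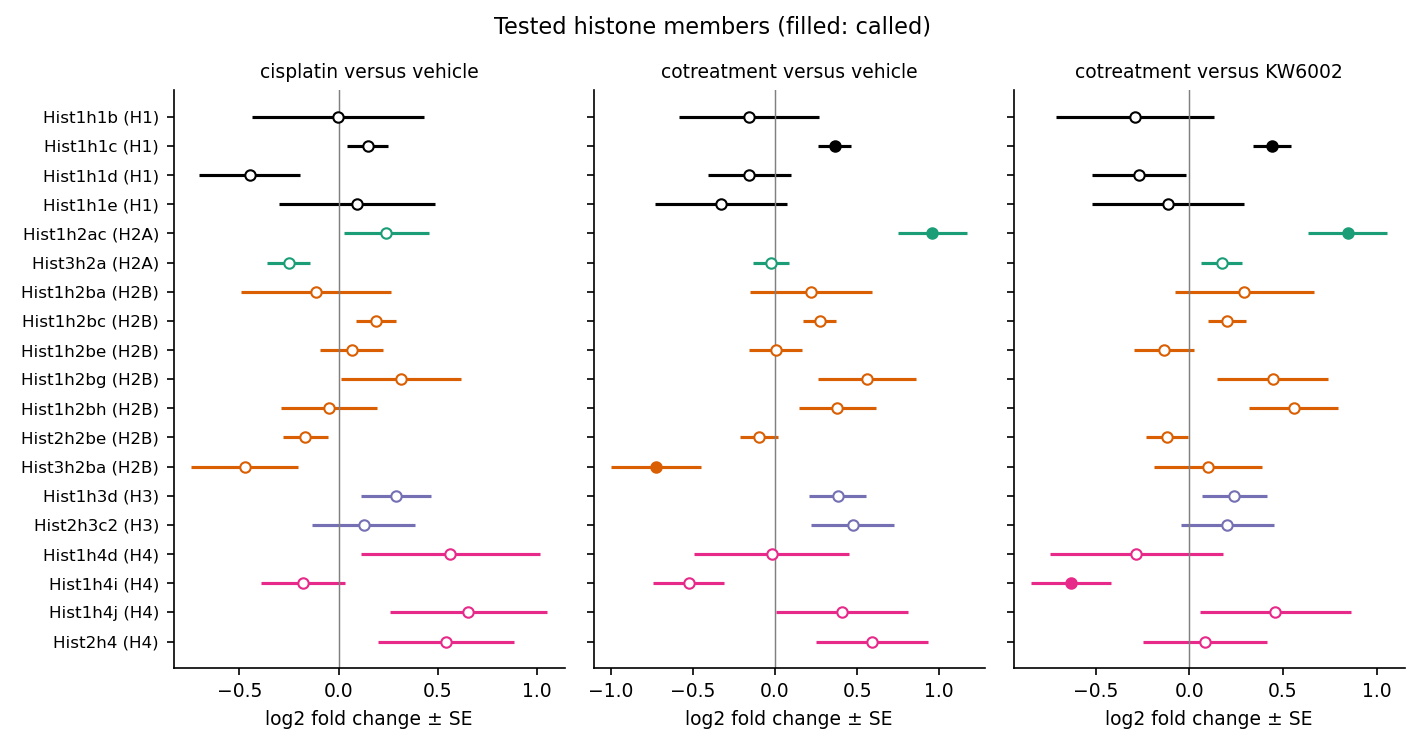
Log2 fold change (x axis) with its standard error for each of the 19 tested members (y axis, colored by histone type) in 3 comparisons; filled points were called. The called members were Hist1h1c, Hist1h2ac and Hist3h2ba for cotreatment against vehicle, and Hist1h1c, Hist1h2ac and Hist1h4i for cotreatment against KW6002; none was called for cisplatin against vehicle.

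Among the linker histones, Hist1h1c rose with cotreatment. Its CPM was 59.6, 65.1, 70.1, 54.3 and 91.5 in the vehicle tumors and 60.5, 60.0, 61.5, 67.7 and 72.8 in the KW6002 tumors. It was 78.3, 71.7, 70.3, 79.3 and 77 with cisplatin and 76.3, 84.0, 93.5, 95.4 and 88.9 with cotreatment. Every cotreated tumor lay above every KW6002 tumor, while 1 vehicle tumor, at 91.5, lay among the cotreated ones. Against vehicle the increase was 1.29-fold (log2 0.36, SE 0.10, edgeR adjusted P = 0.00862), and against KW6002 it was 1.36-fold (log2 0.44, SE 0.10, edgeR adjusted P = 0.00211). Against cisplatin the log2 difference was 0.22 (SE 0.10, edgeR adjusted P = 0.202). With vehicle replicate 4 left out the value against vehicle was 0.29 and no longer passed the fold limit, and correction for exon length and GC share gave 0.318, just under that limit. Within the higher range of sample code numbers, described below, neither the call against vehicle nor that against KW6002 passed (edgeR adjusted P = 0.0902 and 0.0892).

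The other H1 members were lower in level and less precisely measured. Hist1h1d, another somatic H1 gene, had means of 2.34 ± 0.766, 2.53 ± 0.630, 1.71 ± 0.166 and 2.09 ± 0.863 CPM (SD, n = 5) for vehicle, KW6002, cisplatin and cotreatment. Hist1h1e had 0.645 ± 0.355, 0.555 ± 0.190, 0.685 ± 0.313 and 0.514 ± 0.232 CPM in the same order. Of 4 H1 members tested for cotreatment against vehicle, 1 was called, near the background of 23.5%. The other 3 had fitted values below 0, but their 95% intervals, -1.04 to 0.73 for Hist1h1b, -0.68 to 0.37 for Hist1h1d and -1.17 to 0.51 for Hist1h1e, include the value of Hist1h1c, and the differences between these genes were not tested. Summed over the 5 H1 members, the level was 71.5 ± 15.3 CPM with vehicle and 90.6 ± 8.36 CPM with cotreatment (SD, n = 5), but without Hist1h1c these sums were 3.43 and 2.99 CPM.

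Among the H2A genes, Hist1h2ac (chr13:23681467-23683948, minus strand) had the largest fold change of the called members. Its CPM was 1.24, 1.83, 1.89, 1.82 and 1.92 with vehicle and 1.71, 1.10, 1.45, 2.43 and 2.75 with KW6002. Cisplatin tumors had 2.26, 1.88, 1.42, 2.15 and 2.58, and cotreated tumors had 3.69, 3.44, 4.02, 2.89 and 2.90 CPM. All 5 cotreated tumors lay above all 15 others. It was the 1 member of 19 without overlap against vehicle, where 24.6% of all genes did not overlap, and the 1 member without overlap against cisplatin, where 4.84% did not. Against KW6002, 2 of 19 members did not overlap (Hist1h1c and Hist1h2ac), beside 24.9% of all genes.

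The increase of Hist1h2ac was 1.94-fold against vehicle (log2 0.96, SE 0.21, edgeR adjusted P = 0.00131) and 1.80-fold against KW6002 (log2 0.85, SE 0.21, edgeR adjusted P = 0.00357). Without vehicle replicate 1, the lowest of the vehicle tumors, the value against vehicle was 0.87 (edgeR adjusted P = 0.00449). Within the higher range of sample code numbers, described below, the values against vehicle and KW6002 were 0.65 and 0.40. Neither was called there (edgeR adjusted P = 0.0932 and 0.366). Against cisplatin the increase was 1.65-fold (log2 0.72, SE 0.21, edgeR adjusted P = 0.0425), a call that was lost without cisplatin replicate 2, 3 or 4 or without cotreatment replicate 1, 2 or 3, with values from 0.61 to 0.82 over all 20 omissions. With the replicate number as a block that comparison gave 0.75 (edgeR adjusted P = 0.0513). The interaction term was 0.61 (SE 0.30, edgeR adjusted P = 0.422), so the increase with both drugs was not shown to exceed the sum of the single-drug differences.

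Hist3h2a, the H2A member with most reads, had 7.24 ± 0.961, 6.33 ± 0.435, 6.08 ± 0.685 and 7.13 ± 0.882 CPM (SD, n = 5) for vehicle, KW6002, cisplatin and cotreatment. Its difference between cisplatin and vehicle was -0.25 (SE 0.11, edgeR adjusted P = 0.121). The low H2A gene Hist1h2ad had 98 reads in all and was removed by the filter, as was Hist1h2ae with 86. Hist1h2ae had 0.280, 0.226, 0.285, 0.160 and 0.217 CPM with KW6002 and 0.0489, 0, 0.0341, 0.110 and 0.0935 CPM with cotreatment, from 0 to 9 reads in each of these tumors, and these groups did not overlap. Without the filter the log2 difference was -1.94 (edgeR adjusted P = 0.0214), and with DESeq2 it was -2.02 (adjusted P = 0.0134). These fits called 10.6% and 20.3% of all genes for cotreatment against KW6002.

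Hist1h2ac and Hist1h2bc form a divergent pair of an H2A and an H2B gene, with 250 bases between their annotated starts. Such pairs share an intergenic promoter region, and the octamer ATTTGCAT is the element known from H2B promoters. In RefSeq promoters (GRCm38.p6, from 250 bases before to 50 after the start, both strands searched) ATTTGCAT was present in 6 of 13 H2A genes and 7 of 14 H2B genes, in 0 of the 27 H1, H3 and H4 promoters, and in 1.74% of 32851 promoters of all genes. A site shared by divergent partners was counted for both genes. Hist1h2bc and Hist2h2be had no promoter among those searched. CCAAT was present in 45 of 54 histone promoters against 37.4% of all promoters, and TATAAA in 33 of 54 against 13.6%. The octamer window is shown for the called H2A gene, for the H2A member with most reads and for an H2B member, read along the gene's own strand with the octamer or its reverse complement in capitals.
Hist1h2ac: gggtgggattATGCAAATgaagtttcca
Hist3h2a: ggtaaggcatATGCAAATtaggaaggct
Hist1h2be: gtaagacttaATTTGCATaagactgcct
The promoters searched were chr13:23683910-23684209 (minus strand) for Hist1h2ac, chr11:58954435-58954734 (plus strand) for Hist3h2a and chr13:23585921-23586220 (minus strand) for Hist1h2be. A second RefSeq promoter listed for Hist1h2be, chr13:23621045-23621344 (minus strand), held no octamer. A match is a description of these letters and was not tied to expression.

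**Figure D3:**
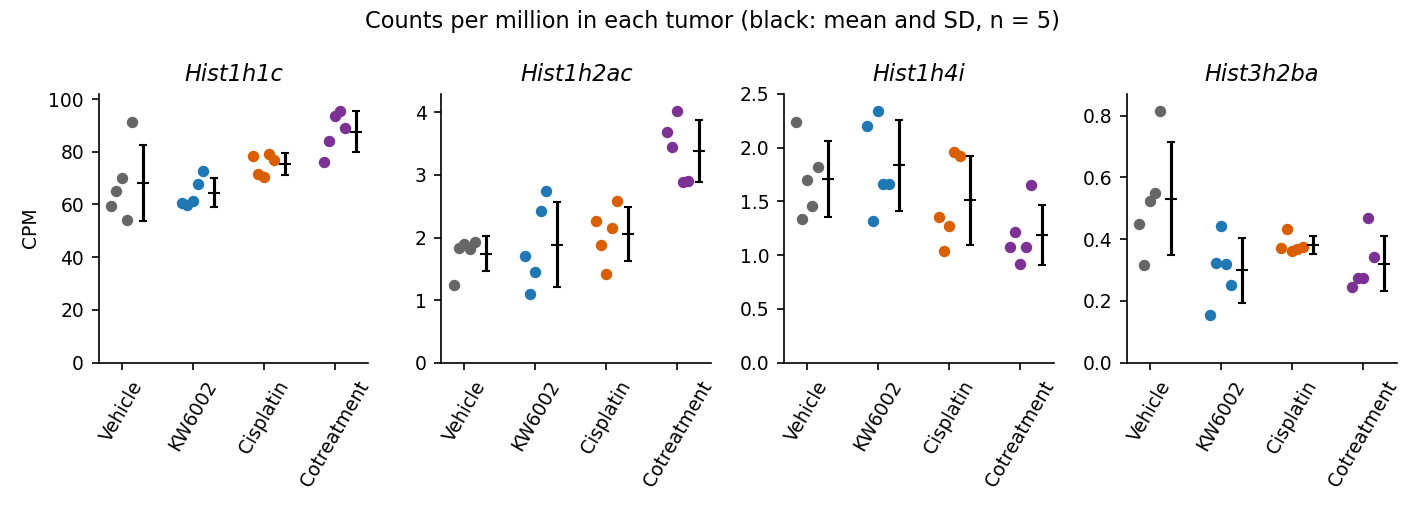
CPM (y axis, starting at 0) of the 4 called members in each of the 20 tumors, by treatment group; black marks give the mean and SD of 5 tumors. The cotreated tumors lie above all others for Hist1h2ac, at 2.89 to 4.02 CPM, while the groups overlap with vehicle for Hist1h1c, Hist1h4i and Hist3h2ba.

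The H2B partner Hist1h2bc had 13.4, 10.8, 13.3, 12.2 and 12.3 CPM with vehicle and 12.0, 16.9, 14.1, 17.5 and 14.4 CPM with cotreatment. The groups overlapped. Its log2 difference was 0.27 (SE 0.10, edgeR adjusted P = 0.0388), under the fold limit. Hist2h2be, which had the most reads of any H2B gene and no stem-loop match in its annotated transcript, had 28.5 ± 2.70, 29.0 ± 3.49, 25.4 ± 5.28 and 26.7 ± 1.63 CPM (SD, n = 5) for vehicle, KW6002, cisplatin and cotreatment. Its cisplatin tumors ranged most widely, at 31.9, 29.2, 25.2, 21.4 and 19.2 CPM. Hist1h2be had 1.88 ± 0.178, 2.08 ± 0.228, 1.97 ± 0.224 and 1.89 ± 0.506 CPM (SD, n = 5) in the same order of groups. Its log2 difference between cotreatment and vehicle was 0.0032 (SE 0.16, edgeR adjusted P = 0.992).

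Hist3h2ba (chr11:58948920-58949533, plus strand), an H2B gene of cluster 3, fell with cotreatment against vehicle. Its CPM was 0.449, 0.316, 0.522, 0.550 and 0.815 with vehicle and 0.244, 0.275, 0.273, 0.468 and 0.343 with cotreatment, from between 5 and 25 reads in each tumor. The groups overlapped. The log2 fold change was -0.72 (SE 0.27, edgeR adjusted P = 0.0432), and this call was lost on leaving out any 1 of 15 of the 20 tumors (all but vehicle replicate 2, KW6002 replicates 1 and 3, cisplatin replicate 2 and cotreatment replicate 4), with values from -0.89 to -0.51. It was also lost with DESeq2 (adjusted P = 0.0938) and in 9 of 14 alternatives in all. KW6002 alone gave -0.82 (SE 0.28) without passing the adjusted test, with 0.155, 0.322, 0.443, 0.32 and 0.253 CPM.

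Of the 7 H2B members tested for cotreatment against vehicle, 0 were called higher (13.1% of all genes) and 1 lower (10.4% of all genes), with 5 fitted values above 0. The sum over the 9 H2B members was 45.1 ± 2.08, 46.1 ± 2.82, 43.9 ± 4.85 and 46.1 ± 3.06 CPM (SD, n = 5) for vehicle, KW6002, cisplatin and cotreatment. These sums differed by less than the spread within the cisplatin group.

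The H3 members were low and none was called. Hist1h3d had 0.839 ± 0.190 CPM with vehicle and 1.10 ± 0.158 CPM with cotreatment (SD, n = 5), a log2 difference of 0.38 (SE 0.17, edgeR adjusted P = 0.0926). Hist2h3c2 had 0.390 ± 0.131 and 0.540 ± 0.0826 CPM, a difference of 0.47 (SE 0.25, edgeR adjusted P = 0.156). Hist1h3g, with 63 reads in all, was removed by the filter.

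Among the H4 genes, Hist1h4i (chr13:22040636-22041362, minus strand) was lower with cotreatment than with KW6002. Its CPM was 2.24, 1.34, 1.70, 1.46 and 1.82 with vehicle and 2.21, 1.32, 2.34, 1.66 and 1.66 with KW6002. It was 1.35, 1.04, 1.27, 1.96 and 1.92 with cisplatin and 1.08, 1.21, 0.92, 1.07 and 1.65 with cotreatment. The highest cotreated tumor lay within the range of the KW6002 and vehicle tumors. The log2 fold change was -0.63 against KW6002 (SE 0.21, edgeR adjusted P = 0.0253) and -0.53 against vehicle (SE 0.21, edgeR adjusted P = 0.0602). The call against KW6002 was lost without KW6002 replicate 1 or 3 or without cotreatment replicate 1, 3 or 4, with values from -0.77 to -0.52. Hist2h4 had 0.407 ± 0.0711 CPM with vehicle and 0.623 ± 0.284 CPM with cotreatment (SD, n = 5), a difference of 0.59 (SE 0.34, edgeR adjusted P = 0.188). Hist1h4j had 0.212 ± 0.0976 and 0.281 ± 0.187 CPM, from between 3 and 18 reads in each tumor.

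Hist1h4c, an H4 gene of cluster 1 with 65 reads in all, was removed by the filter. Its CPM was 0.242, 0.141, 0.0979, 0.138 and 0.130 with vehicle and 0.0244, 0, 0, 0.110 and 0.0312 with cotreatment, from 0 to 7 reads in each of these tumors. The groups overlapped by 1 cotreated tumor. Without the filter the log2 difference was -1.995 (edgeR adjusted P = 0.0370), and with DESeq2 it was -2.12 (adjusted P = 0.0358), both past the limits for a call. These fits called 10.5% and 19.7% of all genes for cotreatment against vehicle.

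**Figure D4:**
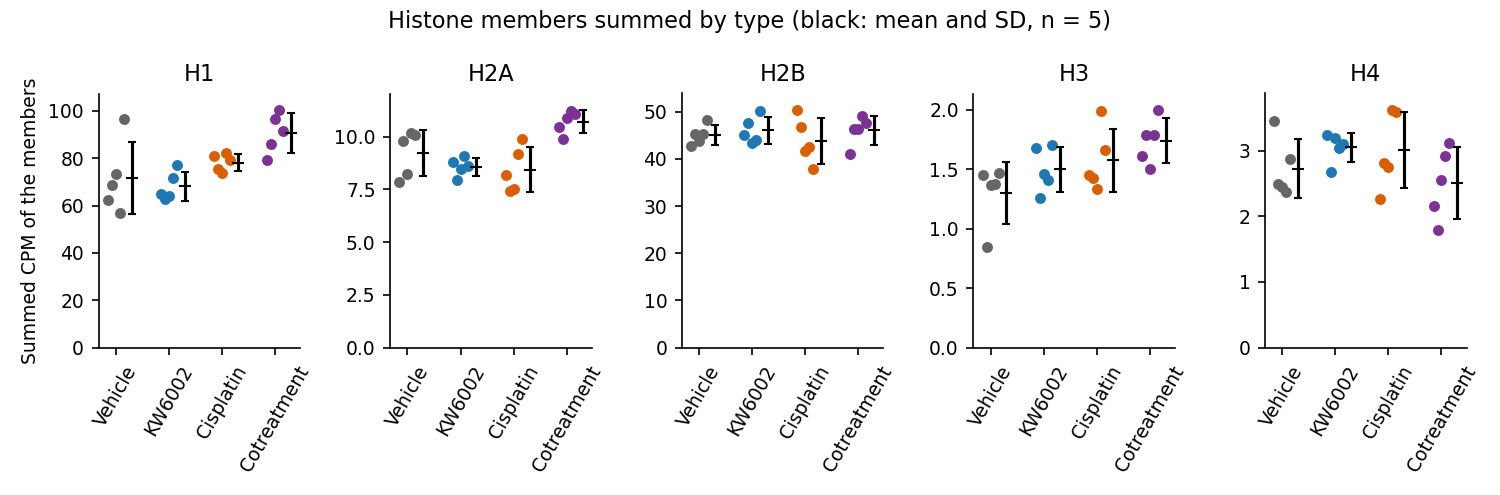
Summed CPM of the members of each histone type (y axes, each starting at 0) in each tumor, by treatment group; black marks give the mean and SD of 5 tumors. The H1 sum was 71.5 CPM with vehicle and 90.6 CPM with cotreatment, and the H2B sum stayed between 43.9 and 46.1 CPM in all groups.

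By cluster, the 20 members of cluster 1 summed to 92.6 ± 15.4 CPM with vehicle, 90.4 ± 7.42 with KW6002, 101.7 ± 6.31 with cisplatin and 116 ± 9.99 with cotreatment (SD, n = 5). The 4 members of cluster 2 gave 29.5 ± 2.69, 30.2 ± 3.69, 26.7 ± 5.25 and 27.9 ± 1.84 CPM. The 2 of cluster 3 gave 7.77 ± 1.04, 6.63 ± 0.482, 6.46 ± 0.667 and 7.45 ± 0.961 CPM. Each of these sums was mostly 1 gene, namely Hist1h1c (68.1 ± 14.3 CPM with vehicle and 87.6 ± 7.73 with cotreatment) in cluster 1, Hist2h2be in cluster 2 and Hist3h2a in cluster 3. The cluster 4 gene Hist4h4, an H4 gene that the filter removed, had 0.0538 ± 0.0479, 0.108 ± 0.0823, 0.168 ± 0.0890 and 0.192 ± 0.123 CPM in the same order of groups, from 0 to 11 reads in each tumor. Its cotreated and vehicle tumors overlapped. Without the filter its log2 difference between them was 1.83 (edgeR adjusted P = 0.0480), and with DESeq2 it was 1.89 (adjusted P = 0.0497), both past the limits for a call. In these fits 10.5% and 19.7% of all genes were called.

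The code numbers that the labels put before the tumor names fell into a lower range (1 vehicle, 2 KW6002, 2 cisplatin and 3 cotreated tumors) and a higher range (4, 3, 3 and 2 of the same groups), separated by a gap. No source says that these ranges mark a date, a preparation or a sequencing run, so this is a division by number only. Within the higher range, Hist1h2ac differed by 0.65 against vehicle (edgeR adjusted P = 0.0932), by 0.50 against cisplatin (edgeR adjusted P = 0.436) and by 0.40 against KW6002 (edgeR adjusted P = 0.366). Within the lower range it differed by 1.41 against KW6002 (edgeR adjusted P = 0.00355) and by 0.85 against cisplatin (edgeR adjusted P = 0.109). Hist1h1c differed by 0.41 against vehicle (edgeR adjusted P = 0.0902) and 0.47 against KW6002 (edgeR adjusted P = 0.0892) in the higher range, and by 0.50 against KW6002 (edgeR adjusted P = 0.00373) in the lower one. Directions were the same in both ranges for the 4 calls that both could give, but none of the 7 calls passed in the higher range alone. With 1 vehicle tumor, the lower range gave no value against vehicle.

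An RNA without a poly(A) tail varied strongly between tumors. Rn7sk, the 7SK RNA that holds the elongation factor P-TEFb inactive, had 10.4, 2.25, 4.24, 6.33 and 13.4 CPM with vehicle and 10.5, 4.96, 5.60, 8.32 and 5.35 with KW6002. It had 4.09, 21.7, 21.1, 12.5 and 5.57 CPM with cisplatin and 4.94, 3.08, 5.21, 12.1 and 15.3 with cotreatment. The groups overlapped throughout. Over the 20 tumors, the summed CPM of the 35 histone genes with at most 100 annotated bases after the stop codon went with Rn7sk (Pearson r = 0.74, Spearman rho = 0.80, and r = 0.74 without the 2 tumors farthest from the median). After subtraction of group means r was 0.76, and it was 0.68 in the 8 tumors of the lower range and 0.85 in the 12 of the higher range. For the 26 genes with longer annotation r was 0.13 and rho 0.05, and r was 0.37 without the same 2 tumors, -0.34 in the lower range and 0.41 in the higher range. That sum, 129 ± 17.3 CPM with vehicle (SD, n = 5), is mostly Hist1h1c (68.1 CPM). The points share library depth and scaling. The other 12 listed tailless RNAs gave r = 0.47 with the short histone genes and r = 0.71 with Rn7sk. After subtraction of group means these values were 0.42 and 0.75. Of the reads of these 12 RNAs, 90.3% came from 2 small nucleolar RNAs.

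Among single members, Hist2h2bb, Hist1h1e and Hist1h1b had r = 0.85, 0.79 and 0.70 with Rn7sk, and the other 24 members had r below 0.5. These 3 did not follow the division by annotated length. Hist2h2bb, whose few reads are uncertain, and Hist1h1b have 0 annotated bases after the stop codon, but Hist1h1e has 1209. The other 4 members with at most 100 bases had r = 0.32 (Hist1h1a), 0.33 (Hist1h2ad), 0.17 (Hist1h2ba) and 0.26 (Hist1h3g). Hist1h1c had r = 0.16, Hist1h2ac -0.25, Hist1h4i -0.03 and Hist3h2ba 0.24. With Rn7sk added to the model, Hist1h2ac differed by 0.98 and Hist1h1c by 0.36 between cotreatment and vehicle (edgeR adjusted P = 0.000975 and 0.0107), while Hist1h2ac against cisplatin gave 0.64 (edgeR adjusted P = 0.0912).

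**Figure D5:**
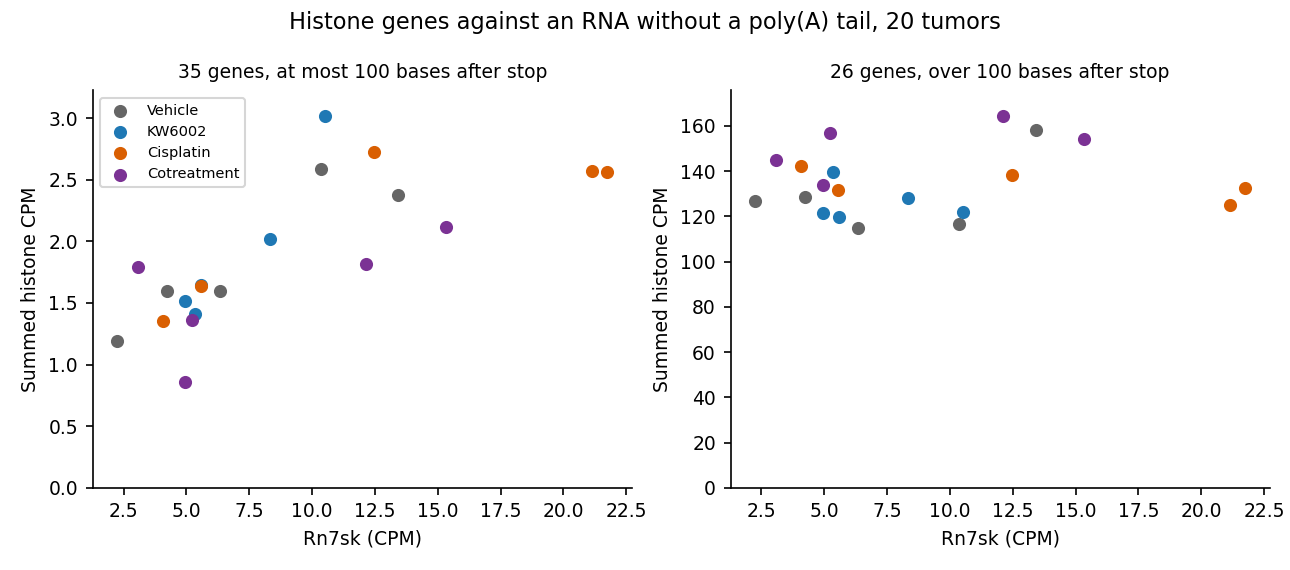
Summed histone CPM (y axes, starting at 0) against Rn7sk CPM (x axes) in the 20 tumors, for the 35 genes with at most 100 annotated bases after the stop codon and for the 26 genes with more; color gives the treatment group. The short group had r = 0.74 with Rn7sk, and the long group, whose sum is mostly Hist1h1c, had r = 0.13 over all tumors and 0.37 without 2 of them.

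Genes that serve histone mRNA were measured in the same fits. Of 18 genes for 3′ end processing and the cap, cotreatment against vehicle called 1 higher (13.1% of all genes) and 4 lower (10.4% of all genes), with a median of -0.24. Slbp fell from 53.6 ± 3.2 to 41.4 ± 2.9 CPM (SD, n = 5; log2 -0.37, SE 0.06, edgeR adjusted P = 8.39e-05). Lsm11, a subunit of the U7 particle that directs cleavage, fell by 0.58 (SE 0.07, edgeR adjusted P = 3.06e-06), and the cap-binding gene Ncbp2 fell by 0.79 (SE 0.07, edgeR adjusted P = 1.77e-07). Nono fell by 0.35 (SE 0.06, edgeR adjusted P = 0.000136) and Zfp473, which encodes a U7-associated zinc finger protein, rose by 0.40 (SE 0.13, edgeR adjusted P = 0.0222). Lsm10, the partner of Lsm11, gave -0.15 and was not called. Npat, the histone gene coactivator, gave -0.14 and was not called. Casp8ap2, needed for histone processing, gave -0.27 with cotreatment, under the fold limit, and fell by 0.32 with cisplatin (SE 0.08, edgeR adjusted P = 0.0065). Of 11 decay factors, cotreatment called 0 higher and 1 lower, near the 10.4% of all genes called lower. This was the decapping enzyme gene Dcp2, which fell by 0.44 (SE 0.10, edgeR adjusted P = 0.00191). Cisplatin alone against vehicle called 3 of the 18 end and cap genes lower and 0 higher. It called 1 of the 11 decay factors lower and 0 higher. Of all genes, 10.6% were called in either direction there. Mean CPM for vehicle, cisplatin and cotreatment was 75.67, 56.99 and 43.7 for Ncbp2 and 29.86, 23.88 and 20.03 for Lsm11. For Dcp2 these means were 101.97, 79.64 and 74.99 CPM.

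Of 30 S phase and replication genes, 0 were called higher and 16 lower with cotreatment against vehicle, beside 13.1% and 10.4% of all genes, with 29 fitted values below 0 and a median of -0.37. Pola1, Mcm3, Tyms and Cdc6 fell by 0.72, 0.66, 0.69 and 0.60. With cisplatin alone 1 was called higher, Tk1, and 1 lower, Pola1, where 10.6% of all genes were called in either direction. Of 20 histone chaperones, 6 were called lower with cotreatment (10.4% of all genes) and 0 higher (13.1% of all genes). Those lower included Nasp (-0.55), Supt16 (-0.44), Hat1 (-0.33) and Anp32e (-0.33).

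Among the 11 histone variants listed as replication-independent and tested, cotreatment called 2 higher and 1 lower, near the 13.1% and 10.4% of all genes. The mRNAs of most such variants are polyadenylated. H2afz rose by 0.41 (SE 0.12, edgeR adjusted P = 0.00992) and H2afj by 0.42 (SE 0.09, edgeR adjusted P = 0.000824). Cisplatin alone against vehicle called 1 of the 11 variants higher and 0 lower. Mean CPM for vehicle, cisplatin and cotreatment was 13.23, 14.96 and 17.59 for H2afz and 25.09, 31.98 and 33.51 for H2afj. H2afx, which encodes H2A.X, fell by 0.38 (SE 0.13, edgeR adjusted P = 0.0286). H2afx is known to give both a tailless mRNA that ends at a stem-loop and a polyadenylated read-through mRNA, so poly(A) selection limits its values as it does those of the clustered genes. The linker variant H1f0 stood at 464 ± 55, 465 ± 28, 442 ± 65 and 470 ± 13 CPM (SD, n = 5) for vehicle, KW6002, cisplatin and cotreatment, with a difference of 0.02 (SE 0.09, edgeR adjusted P = 0.906) between cotreatment and vehicle.

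Some markers of other cells differed between the same groups. The summed CPM of 7 endothelial markers ranged from 155 to 230 with vehicle and from 78.4 to 119 with cotreatment, and all 7 were called lower. With cisplatin alone it ranged from 79.9 to 110 CPM. The 9 listed red cell genes in the table summed to 26.3 to 118 CPM with vehicle and to 0.193 to 0.374 CPM with cotreatment, and to 0.237 to 0.582 CPM with cisplatin alone. The 8 neutrophil markers summed to between 70.9 and 138 CPM with vehicle and between 24.3 and 43.3 CPM with cotreatment, with 26.2 to 95.3 CPM for cisplatin alone. The 8 skeletal muscle markers ranged from 4.87 to 69.8 CPM with vehicle and from 4.11 to 1320 CPM with cotreatment, and 0 of 8 were called. The macrophage sum was 1181 to 1655 CPM with vehicle and 1284 to 1655 CPM with cotreatment. The sums for fibroblasts, T and natural killer cells, B cells, fat and skin epidermis also overlapped between these groups. Single markers of these lists were called with cotreatment against vehicle, namely 1 macrophage marker higher and 2 of 8 lower, 2 of 7 fibroblast markers lower and 1 of 9 T and natural killer cell markers lower. Of all genes, 13.1% were called higher and 10.4% lower in this comparison. None of the marker genes in the table was at 0 reads in all tumors. With the muscle sum added to the model, Hist1h2ac and Hist1h1c differed by 0.90 and 0.32 between cotreatment and vehicle (edgeR adjusted P = 0.00288 and 0.0202). The part of the other markers in the histone values was not tested.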

How the data were processed

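The authors deposited raw read counts per Ensembl gene for 20 tumors. Per the submitters' notes and the study's methods, poly(A)-selected stranded libraries were read as single-end 50-base reads, demultiplexed with bcl2fastq 2.17.1.14, aligned to mm10 with STAR and counted with HTSeq 0.6.1p1 in union mode from unique alignments. Symbols, exon lengths and sequences came from GENCODE M21 (GRCm38), which matched 35142 of 35226 genes, and promoters from RefSeq GRCm38.p6. The Ensembl release used for counting is not settled by the sources used here. All 20 sample columns were used.

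Counts were scaled with TMM factors (0.969 to 1.02), filtered with filterByExpr and fitted with edgeR 4.0.16 (R 4.3.3, quasi-likelihood, robust) over 4 group means and all 20 tumors, with Benjamini-Hochberg adjustment over 16665 genes. CPM (reads of a gene per 1e+06 reads of the scaled library) used the same factors. Calls needed an adjusted P under 0.05 and an absolute log2 fold change of at least 0.32. DESeq2 1.42.0, other scalings, filters, a replicate block, a length and GC offset, the range of sample code numbers and omission of each tumor were alternatives. Named were every called member, the 3 members of each type with the highest CPM, and, in each pathway list, up to 4 called genes plus Slbp, Npat, Casp8ap2, Lsm10, Lsm11, H1f0 and H2afx. Further histone genes were named at the count limit, for removal by the filter, for uncertain reads, or for calls without the filter. Others were named for H1 intervals or for their relation to Rn7sk. The members and lists were chosen with earlier results of these data known. On simulated counts for cotreatment against vehicle (16665 genes), 38 of 100 genes changed by 0.5 and 81 of 100 changed by 1 on the log2 scale were recovered, with 6 false calls. The changed genes were drawn from all genes tested and were not matched to the members in reads. Fewer genes were changed than were called in the tumors, so these shares do not give the recovery of the members.

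Nothing in the labels ties tumors to litters or days. Intervals and P values cover the spread between these tumors, and low read counts limit precision for most members.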

Additional observations from a re-analysis of the deposited data

Results flagged for a closer look

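In 5 of 88 groups of 5 tumors checked for a lone extreme value, 1 tumor stood apart from the other 4; chance gives about 1 in 20 groups. Hist1h2ac was lowest in vehicle replicate 1, at 1.24 CPM against 1.82 for the next. Hist1h2ad was highest in KW6002 replicate 1, at 0.311 CPM, from few reads. Hist3h2a was lowest in KW6002 replicate 5, at 5.56 CPM. Hist3h2ba was highest in cisplatin replicate 2, at 0.431 CPM, in a group whose other values lie close together. The summed H3 members were lowest in vehicle replicate 2, at 0.843 CPM.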

How the results depend on the processing

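No call changed direction under any alternative run. The number of members called for KW6002 against vehicle and for the interaction was 0 under every alternative. Leaving out each tumor in turn gave 0 to 0 members for cisplatin against vehicle, 1 to 4 for cotreatment against vehicle (1 without vehicle replicate 4), 0 to 1 for cotreatment against cisplatin (0 without cisplatin replicate 2, 3 or 4 or cotreatment replicate 1, 2 or 3) and 2 to 4 for cotreatment against KW6002. Cotreatment against cisplatin also gave 0 in place of 1 with the replicate block, with the replicate block plus the length and GC offset, and with only the groups compared. The following were chosen after seeing the data. Rn7sk as a term and the lower code range alone also gave 0 for that comparison. The higher code range alone gave 1 for cisplatin against vehicle (Hist2h2be), 1 for cotreatment against vehicle (Hist1h2bc), 0 against cisplatin and 0 against KW6002. The shares of all genes called with all tumors do not apply to a part of them. These counts were therefore not compared with a share.

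The labels do not say that a replicate number marks a shared animal, litter or day, so the tumors were not taken as paired. In no pair of groups did all 5 same-number pairs have correlated deviations above 0.1, but this rule cannot exclude pairing. Over all groups 12 of 30 pairs were above 0.1 (range -0.52 to 0.51). Between cisplatin and cotreatment, where the block removed the 1 call, 4 of 5 were (range -0.10 to 0.31), but 1 of 10 tumors correlated best with its own number. Between vehicle and cotreatment 3 of 5 were, and 3 of 10 tumors correlated best with their own number. With the block, cotreatment against vehicle gave 2 members, without Hist3h2ba, and against KW6002 gave 4. These counts were not compared with the share of all genes called with the block. DESeq2 and the absence of a filter each added Hist1h4c (lower) and Hist4h4 (higher), which the filter had removed, and left out Hist3h2ba for cotreatment against vehicle, and each added Hist1h2ae (lower) against KW6002. For cotreatment against vehicle DESeq2 called 19.7% of all genes and the fit without a filter 10.5%. Against KW6002 these shares were 20.3% and 10.6%. All 60 type sums under other scalings lay within 1 SD. Removing the top gene of a type moved every type sum. Depth limits members with under 10 reads in a tumor.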
